A study of Mus musculus with 9 samples.

Results

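The hearts described here are the 3 control samples of a series on transgenic mice: FVB mice, labelled male and aged 14 days, from whose frozen hearts total RNA was prepared. They are 3 of 9 samples in the series. The other 6 carry a transgene (the N-line and the K-line, 3 samples each) and are not described. The labels call the 3 mice control samples and do not say whether they were littermates, whether each array held the RNA of its own mouse, or which portion of the heart was taken. The spread between the arrays may therefore be partly technical. Each sample was hybridised to its own array of 46629 probes, on which every probe is read on many beads. The members described are the 16851 probes whose deposited detection score was over 0.95 on all 3 arrays. Of these, 4686 could be named through the gene number in their code, and they belong to 4185 genes, 51.7% of the 8102 genes with a named probe.

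The heart of a young mouse is a mixture of beating muscle cells with blood vessels, fibroblasts, epicardium and blood. Its muscle cells are packed with mitochondria, because contraction and the return of calcium to its store consume ATP without pause, and after birth the supply of that ATP shifts from sugar towards fatty acids. In mouse ventricle the slow myosin heavy chain of the fetus, Myh7, gives way around birth to the fast chain, Myh6. In RNA from whole tissue, fewer cells of a type and less RNA per cell cannot be told apart.

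The 3 arrays were alike in quality. Between 17934 and 18679 probes were detected on each (38.5% to 40.1%), with a median of 36 or 37 beads per probe and a median bead error of 4.13% to 4.32% of the signal. Pairs of arrays correlated at 0.993 to 0.995 (Pearson) across the detected probes, which are not independent. The Y-linked genes Kdm5d and Ddx3y were detected on all 3 arrays and Eif2s3y on 2, while the probe for Xist, the RNA that coats the inactive X chromosome, and the probe for Uty were detected on 0. Control 2 stood apart on a small set of probes, described with the spread between arrays. Values are log2 intensities after background correction and quantile normalization, given in the order control 1, control 2, control 3, and a mean carries its standard deviation (SD) over the 3 arrays. A percentile is a probe's place in brightness among the 16851 detected probes, with 100 the brightest. Named probes made up 38.7% of the brightest 10% of detected probes and 15.8% of the dimmest 10%, and 40 of the 100 brightest, so much of the bright end stays without a gene name. A percentile ranks the light of probes and not the abundance of transcripts, since probes differ in how well they bind. Among 460 genes with at least 2 detected probes, the brightest and the dimmest probe of a gene lay a median of 26.7 percentiles apart.

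Promoters of some of the brightest genes are shown here with motifs found in them. The windows run from 250 bases before to 50 bases after the annotated start, written 5′ to 3′ on the strand of the gene, from RefSeq on GRCm38.p6. Capitals mark CTTCCGG, the core bound by ETS-family factors, in the promoters of Atp5h (a subunit of ATP synthase, chr11:115419870-115420169, minus strand), Cox6b1 (a subunit of cytochrome c oxidase, chr7:30626065-30626364, minus strand) and Rpl41 (a ribosomal protein, chr10:128549119-128549418, minus strand). In Rpl41 the motif reads on the opposite strand. These are the 2 brightest energy genes and the brightest ribosomal gene that have 1 listed promoter with this motif.
Atp5h: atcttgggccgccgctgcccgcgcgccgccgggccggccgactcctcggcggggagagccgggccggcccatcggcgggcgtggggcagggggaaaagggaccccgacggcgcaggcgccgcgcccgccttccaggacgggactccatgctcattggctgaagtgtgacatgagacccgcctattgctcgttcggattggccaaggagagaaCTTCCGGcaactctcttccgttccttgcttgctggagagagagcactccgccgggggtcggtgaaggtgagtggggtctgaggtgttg
Cox6b1: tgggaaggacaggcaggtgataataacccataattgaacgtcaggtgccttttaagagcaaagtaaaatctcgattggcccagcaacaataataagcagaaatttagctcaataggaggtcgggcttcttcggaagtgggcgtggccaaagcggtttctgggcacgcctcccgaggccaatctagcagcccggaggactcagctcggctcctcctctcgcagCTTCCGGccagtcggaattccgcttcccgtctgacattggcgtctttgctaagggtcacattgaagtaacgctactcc
Rpl41: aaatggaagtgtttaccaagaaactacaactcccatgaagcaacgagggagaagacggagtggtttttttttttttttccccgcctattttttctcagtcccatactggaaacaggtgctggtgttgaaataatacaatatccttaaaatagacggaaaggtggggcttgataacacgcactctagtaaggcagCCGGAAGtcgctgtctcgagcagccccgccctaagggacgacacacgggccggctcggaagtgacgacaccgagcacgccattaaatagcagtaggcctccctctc

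Capitals mark CATTCC, the M-CAT element bound by TEAD factors and known from cardiac muscle promoters, in the 2 brightest genes of contraction or excitation with 1 listed promoter that holds it. They are Myl7 (the atrial light chain of myosin, chr11:5898733-5899032, minus strand) and Myh6 (the fast myosin heavy chain, chr14:54966558-54966857, minus strand), where the element reads on the opposite strand.
Myl7: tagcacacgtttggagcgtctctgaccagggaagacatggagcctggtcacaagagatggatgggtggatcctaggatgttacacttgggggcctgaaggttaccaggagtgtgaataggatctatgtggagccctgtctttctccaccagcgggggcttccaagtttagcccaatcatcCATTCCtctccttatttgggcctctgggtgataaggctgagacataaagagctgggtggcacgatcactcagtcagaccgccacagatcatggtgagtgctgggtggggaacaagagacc
Myh6: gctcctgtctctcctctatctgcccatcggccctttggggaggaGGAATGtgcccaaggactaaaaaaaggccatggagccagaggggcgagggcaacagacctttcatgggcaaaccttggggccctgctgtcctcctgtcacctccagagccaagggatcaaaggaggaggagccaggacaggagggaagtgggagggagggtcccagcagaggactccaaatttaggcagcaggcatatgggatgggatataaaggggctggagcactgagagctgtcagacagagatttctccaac

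Of the 32851 promoters in the table, 8.86% held CTTCCGG on either strand, against 17.3% of the 4430 promoters of named genes detected in the control hearts and 7.96% of the 3658 promoters of named genes that were not. The motif was in 41.2% of the 51 promoters of detected ribosomal genes and in 6 of the 13 promoters of detected genes of complexes II, III and IV and cytochrome c, but in 2 of the 20 of complex I and 0 of the 28 of glucose use. Over all energy lists it was in 14.3% of the promoters, a lower share than among all detected named genes. It was in 0 of the 35 promoters of detected genes of contraction and excitation. CATTCC was in 8 of those 35 promoters (22.9%) and in 14.7% of all promoters. The TATA box, written TATAAA and searched on the gene's strand from 40 to 20 bases before the start, was in 1.91% of all promoters. Its share was 3.34% among undetected named genes, 1.31% among detected ones and 2.70% in the brightest 10% of these. In the Myh6 window the letters TATAAA begin 1 base past the annotated start, outside the searched stretch. G and C made up 60.9% of the promoters of detected genes, 54.1% of those of undetected genes and 53.8% of all. In the lists they made up 57.6% for ribosomal genes, 54.9% for complexes II, III and IV and cytochrome c, and 59.3% for contraction and excitation. The part of base composition in the motif shares was not tested. A match of letters does not show that a factor binds there.

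Detection split gene classes widely. Of the 8102 genes with a named probe, 4185 (51.7%) were detected on all 3 arrays. Among families gathered by their symbols, 9 of 9 cytochrome c oxidase subunits, 9 of 9 ATP synthase subunits, 25 of 26 complex I subunits and 33 of 35 mitochondrial ribosomal proteins were detected, and 71 of 80 cytosolic ribosomal proteins. Solute carriers, with 68 of 128 detected, and zinc finger proteins, with 83 of 168, lay near the share of all named genes.

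At the other end stood the families of specialised tissues. Of 319 olfactory receptors, 5 were detected (Olfr1036, Olfr116, Olfr1371, Olfr1380 and Olfr1383, named because they are so few), at a median percentile of 20.8. Vomeronasal receptors gave 0 of 76, beta defensins 0 of 9 and the prolactin family 0 of 6. Of 22 keratins, 4 were detected (Krt10, Krt18, Krt6b and Krt8), and of 17 Hox genes, which pattern the body axis, 3 (Hoxb2, Hoxc8 and Hoxd8). Protein-coding genes were detected in 53.8% of 7638 cases and long non-coding RNAs in 14.9% of 349. Of 340 probes coded for variable segments of immunoglobulins and T cell receptors, 7 were detected, and of 4 constant-region genes 2 were, Igkc and Ighm.

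**Figure D1:**
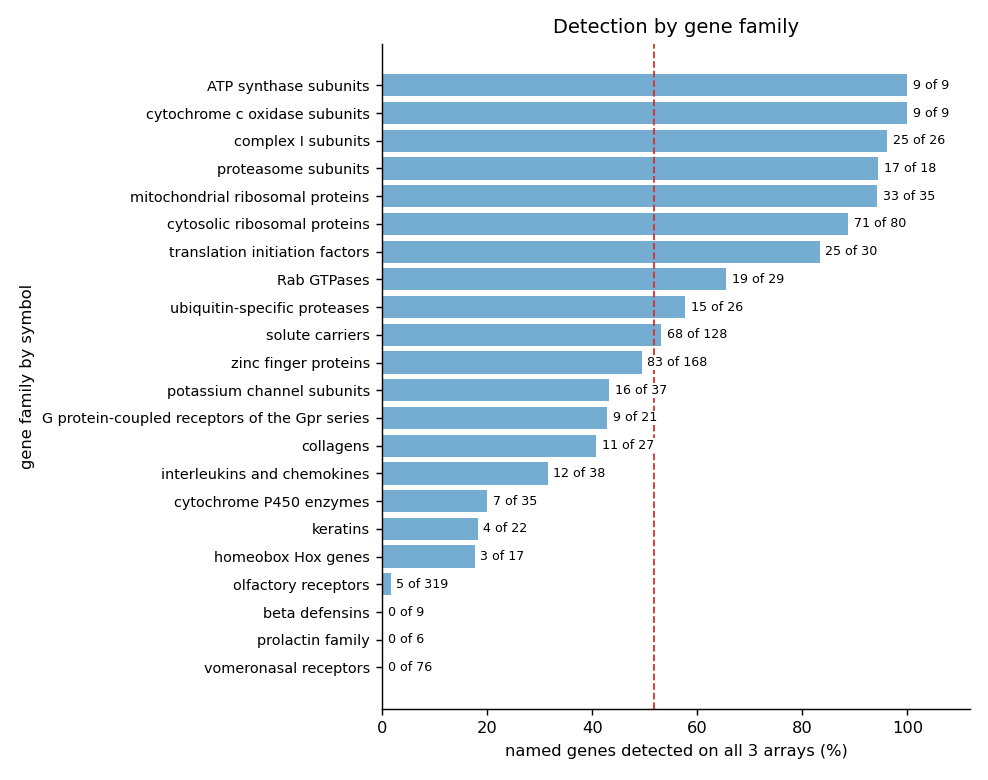
Percentage of named genes detected on all 3 control arrays in each gene family, with the counts beside the bars. The dashed line is the share over all 8102 named genes, 51.7%. Subunits of the respiratory chain lie at the top and chemosensory receptors at the bottom.

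The brightest named genes were mostly those of energy supply and of protein synthesis. Of the 30 brightest, 19 belonged to the lists of energy metabolism or the mitochondrial genome and 7 were ribosomal proteins. The rest were Hba-a1, the alpha globin of red cells, Ubb, a ubiquitin gene, Hspa8, a constitutive heat shock chaperone, and Ybx1, a protein that packages mRNA. Of the 100 brightest, 45 were genes of energy metabolism or the mitochondrial genome, 4 were genes of oxygen handling and antioxidant defence and 30 were ribosomal proteins, and 12 lay in none of the lists, among them Cd81, a membrane tetraspanin, and Actb, cytoplasmic actin, which were picked after their values were seen. Many of these genes have near-identical processed copies in the mouse genome, which a probe can also bind, so their values are uncertain to that extent.

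Atp5j2, a subunit of the membrane part of ATP synthase, was the brightest named gene, at 14.91, 15.04 and 14.97. Gapdh, of glycolysis, followed at 14.86, 14.81 and 14.91. Fabp3, the fatty acid binding protein of heart muscle, stood at 14.82, 14.84 and 14.81. The ranges of Gapdh and of Fabp3 overlapped, and so did those of 28 of the 29 pairs of neighbours in the order of the 30 brightest, so the order within this group is not resolved by 3 arrays. The last of the 30, the mitochondrially encoded ATP6, read 14.35, 14.49 and 14.47, so all 30 lay within a narrow band. A probe for 18S ribosomal RNA was brighter than every named gene, at 15.21 on each array. It held the top place on all 3 arrays, where quantile normalization fixes a common value.

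**Figure D2:**
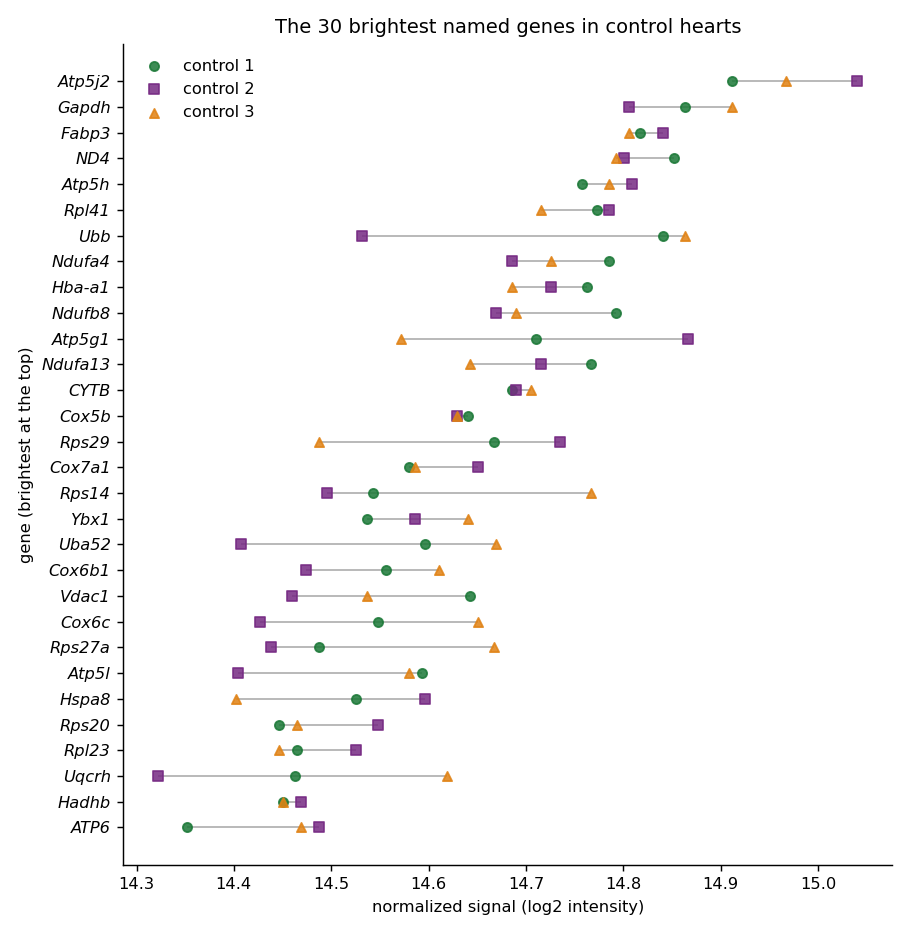
Normalized log2 intensity (x axis, not starting at 0) of the 30 brightest named genes on control 1 (circles), control 2 (squares) and control 3 (triangles), with a line from the lowest to the highest array. Atp5j2 lies at the top with a mean of 14.97 and ATP6 at the bottom with 14.44, and most neighbours overlap.

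Most measured genes of the respiratory chain were bright, with 17 of 20 of complex I and 17 of 18 of the later complexes and cytochrome c in the brightest 10% of detected probes. All 20 measured nuclear genes of complex I, which takes electrons from NADH, were detected, at a median percentile of 98.1, against 63.1 over all detected named genes. Ndufa4 (14.79, 14.69 and 14.73), Ndufb8 (14.79, 14.67 and 14.69) and Ndufa13 (14.77, 14.72 and 14.64) led the list. Ndufa4 was first assigned to complex I and is now known as part of cytochrome c oxidase. The dimmest was Ndufab1, the mitochondrial acyl carrier protein, at 6.57, 6.15 and 6.48. Of complexes II, III and IV and cytochrome c, 17 of 18 measured genes were detected, at a median percentile of 99.1. Their probes spread little between arrays, with a median SD of 0.05. The median SD was 0.11 over all detected probes and 0.07 over the brightest 10%, where these genes lie. Cox5b read 14.64, 14.63 and 14.63, and Cox7a1, the muscle form of its subunit, 14.58, 14.65 and 14.59. Sdha, the flavoprotein of complex II, was not detected on any array (4.48, 4.60 and 4.57), whereas its partners Sdhb (13.11 ± 0.03) and Sdhc (13.90 ± 0.04) were bright.

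Of the genes that make and carry ATP, 14 of 14 were detected, at a median percentile of 99.2. Beside the ATP synthase subunits stood Vdac1, the main pore of the outer mitochondrial membrane (14.64, 14.46 and 14.54), and Ckmt2, the creatine kinase of muscle mitochondria (14.19, 14.15 and 14.27). Ckb, the brain-type creatine kinase, read 12.52, 12.61 and 12.48, and Vdac3 was the dimmest of the list at 10.39 ± 0.15.

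Genes of the mitochondrial genome were measured by probes of both kinds, those named through a gene number and those that carry the gene's own name. Of 13 probes of the latter kind 12 were detected, at a median percentile of 99.6. ND4, a complex I subunit, read 14.996 with the probe of its own name and 14.82 with the other. The probes of a gene did not always match. ND5 read 13.91 with the probe of its own name and 9.58 with the other, and ND2 read 14.55 with one and was not detected with the other (4.60). ND6, the protein encoded on the opposite strand, was undetected with the probe of its own name (4.82) and read 10.08, 9.70 and 9.68 with the other. The same gene thus stood at very different brightness with different probes.

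Fuel genes were bright but more uneven. Of 12 measured genes of fatty acid use 9 were detected, at a median percentile of 94.6. After Fabp3 came Hadhb, of the trifunctional protein of beta oxidation (14.45, 14.47 and 14.45), and Etfa, which passes electrons from that pathway to the respiratory chain (14.23, 14.29 and 14.47). Lpl, the lipase that frees fatty acids from blood lipids, read 13.83, 13.67 and 13.72. Cd36, the fatty acid transporter, was far down, at 8.35, 7.95 and 8.27 (percentile 61.9). Fabp4 and Fabp5, of vessels and fat, were not detected with their named probes.

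Of 18 genes of glucose use 16 were detected, at a median percentile of 98.0. The muscle forms Eno3 (14.06 ± 0.08) and Pfkm (13.90 ± 0.07, brightest probe) were bright. The probes of their relatives Eno1 (9.43 ± 0.14), Pfkl (11.40 ± 0.12) and Pfkp (6.09 ± 0.12) were dimmer than these on every array. A second detected probe of Pfkm read 8.79, 8.48 and 9.31, dimmer than that of Pfkl, so this contrast depends on the probe. The probes of both lactate dehydrogenases lay close together. Ldhb, the heart form, read 13.53, 13.50 and 13.53, and Ldha, the muscle form, 13.42, 13.46 and 13.41. Of the tricarboxylic acid cycle and pyruvate entry, 11 of 13 were detected, at a median percentile of 97.5. Got2, the mitochondrial transaminase of the malate-aspartate shuttle, led at 14.33 ± 0.05. Mpc2, of the mitochondrial pyruvate carrier, was bright at 12.94 ± 0.16, while its partner Mpc1 was not detected on any array.

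**Figure D3:**
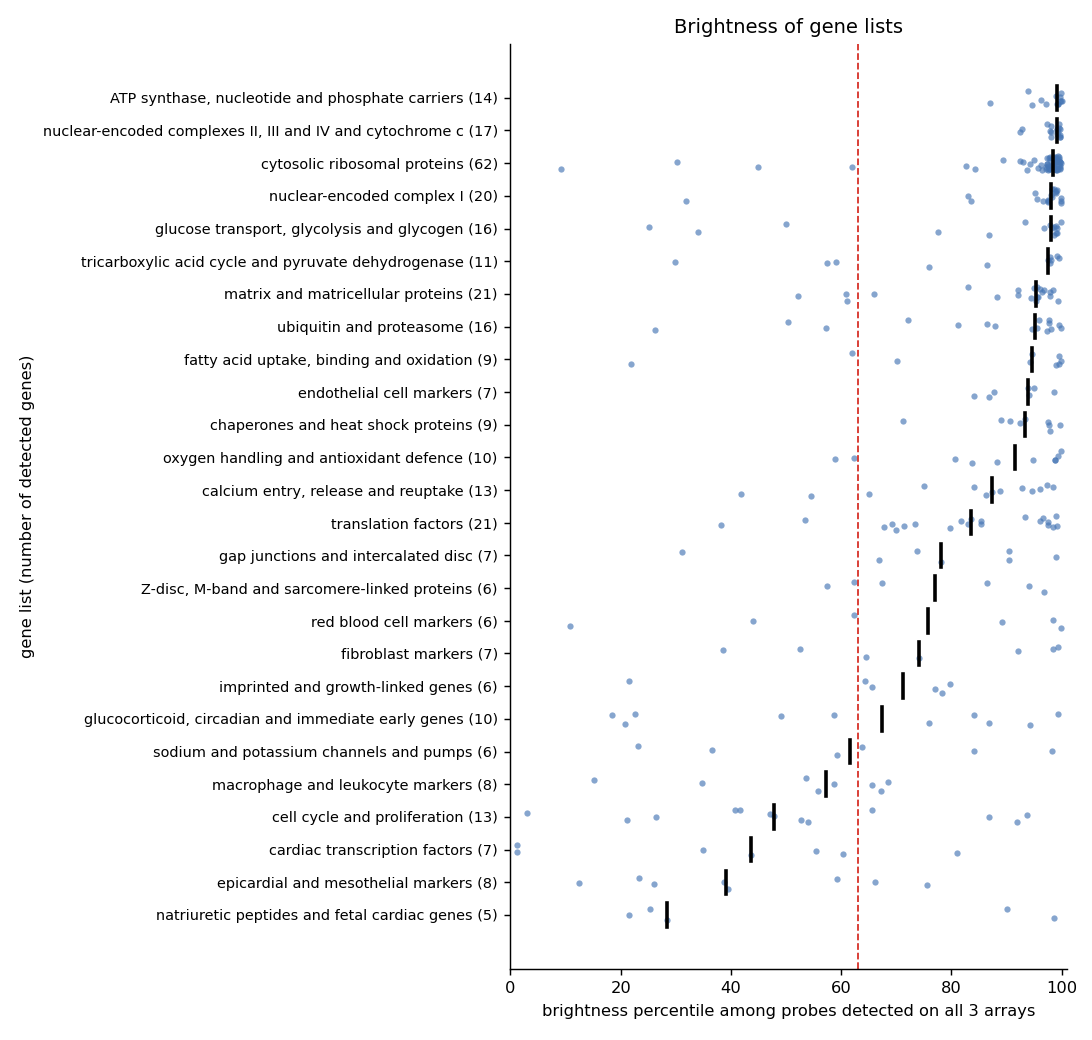
Brightness percentile of each detected member (dots) of the gene lists with at least 5 detected members, with the list's median (black bar) and the number of detected members in brackets. The dashed line is the median over all detected named genes, 63.1. Lists of energy supply and of the ribosome lie at the right, and cardiac transcription factors, epicardial markers and fetal genes at the left, with single bright members such as Myl7.

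The contractile apparatus was read by few named probes. All 4 measured genes of the thick filament were detected, each within the brightest 10%. Myl7 read 13.61, 13.47 and 13.42, and Mybpc3, the cardiac myosin binding protein, 12.51, 12.72 and 12.51. Myh6 read 13.12, 13.16 and 13.03 (percentile 98.1), and Myh7 10.76, 10.64 and 11.06 (percentile 90.1). The probe for Myh7 was thus dimmer than that for Myh6 on every array, with an SD of 0.22 against 0.07. Of 13 thin filament genes only Tpm3, a tropomyosin found also outside muscle, had a named probe (10.01 ± 0.08). The cardiac actin, troponins and ventricular light chains were not named and are not described. Of the Z-disc and M-band proteins, 6 of 6 measured were detected, with Cmya5 (myospryn, 12.36 ± 0.12) and Flnc (filamin C, 11.57 ± 0.22) brightest and Xirp2, a protein of the intercalated disc, dimmest at 7.87 ± 0.11.

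Calcium handling followed, with 13 of 14 measured genes detected at a median percentile of 87.4. Atp2a2, the SERCA2 pump that returns calcium to the sarcoplasmic reticulum, read 13.30, 13.40 and 13.29. Srl (sarcalumenin), which stores calcium there, read 12.08 ± 0.06, and Slc8a1, the sodium-calcium exchanger that expels it, 11.30 ± 0.09. Cacna1c, the pore of the L-type calcium channel, stood at 10.01, 10.07 and 10.09. Ryr2, the release channel of the heart, had the dimmest detected probe of the list at 6.90, 6.71 and 7.15, and the receptor channel Itpr2 was not detected.

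Among channels and pumps, 6 of 9 were detected. Atp1b1, the beta subunit of the sodium pump, read 13.16 ± 0.04, and the potassium channels Kcnq1 and Kcna5 10.06 ± 0.03 and 8.33 ± 0.28. The channel genes Kcnj5 and Abcc9 were detected on 0 arrays and Kcnj3 on 1. Of the genes of the intercalated disc 7 of 10 were detected, from Ctnna1 (alpha-catenin, 13.82 ± 0.07) and the desmosomal Jup and Pkp2 (10.87 ± 0.09 and 10.86 ± 0.04) down to Dsg2 (6.36 ± 0.05).

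Cardiac transcription factors had dim probes: 7 of 8 were detected, at a median percentile of 43.7, and none lay in the brightest 10%. Mef2c was brightest at 9.65, 9.77 and 9.83. Gata4 read 6.99, 6.79 and 7.28, and Irx4, a factor of the ventricle, 6.71, 6.52 and 6.40. Tbx5 and Mef2d lay near the limit of detection, at 5.24 ± 0.07 and 5.24 ± 0.10, which places them at percentile 1.2. Of the 10 probes just inside the detection threshold, signals ran from 5.13 to 5.33, and of the 10 just outside from 5.12 to 5.39, and these ranges overlapped.

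Protein synthesis and turnover came close to energy supply. Of 68 measured ribosomal protein genes 62 were detected, 55 of them in the brightest 10%, at a median percentile of 98.5 and a median SD of 0.08. Rpl41 (14.77, 14.79 and 14.72) and Rps29 (14.67, 14.74 and 14.49) led, and Rpl4 was the dimmest detected at 5.48 ± 0.04. Of 24 translation factors 21 were detected. Eef1a2, the elongation factor form of muscle and neurons, read 13.69, 13.81 and 13.82, while Eef1a1, the form of most other tissues, was detected on 1 array with its named probe (5.25, 4.78 and 4.75). Of ubiquitin and proteasome genes 16 of 17 were detected, with Ubb at 14.84, 14.53 and 14.86. Of chaperones 9 of 12 were detected, with Hspb1, a small heat shock protein abundant in muscle, at 12.89 ± 0.04.

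Matrix genes were bright in these growing hearts: 21 of 25 were detected, 15 of them in the brightest 10%, at a median percentile of 95.4. Dcn (decorin), a collagen-binding proteoglycan, read 14.14, 14.13 and 14.04, and Mgp, the matrix Gla protein that restrains calcification, 13.33, 13.40 and 13.32. Eln, elastin of the large vessels, read 12.92 ± 0.10, Col3a1 12.25 ± 0.21 and Col1a1 12.09 ± 0.12. The other chain of collagen I, Col1a2, read 8.11 ± 0.06. The collagens as a family were detected in 11 of 27 cases (40.7%, against 51.7% of all named genes). The detected ones had a median percentile of 94.4. The stress-linked matricellular genes Spp1 and Thbs1, as well as Col5a2, were not detected on any array, and Postn, raised in activated fibroblasts, was detected on 2 (5.42, 4.69 and 5.42).

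Cell cycle genes were detected at modest brightness. Of 18 cell cycle genes 13 were detected, at a median percentile of 47.8. Mki67, the proliferation marker, read 7.52, 7.62 and 7.57, and Birc5 and Plk1, both of mitosis, 7.22 ± 0.10 and 6.86 ± 0.18. Ccnd1, cyclin D1, read 11.11 ± 0.17. Rrm2, of nucleotide synthesis, was detected on 2 arrays (6.15, 5.09 and 5.81), and Bub1 and Cks2 on none. Of the imprinted genes 6 of 11 were detected (54.5%), near the 51.7% of all named genes, with Mest at 9.63 ± 0.12 and Peg3 at 9.49 ± 0.09, and Meg3 and Plagl1 on no array. Of 6 measured natriuretic peptide and fetal cardiac genes 5 were detected, at a median percentile of 28.5. Myl7 and Myh7 of this list lay in the brightest 10%, while Igf2bp3 (6.24 ± 0.13) and Dlk1 (5.92 ± 0.14) were dim.

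Probes for most markers of vessels were bright. Endothelial genes were detected in 7 of 8 cases, at a median percentile of 93.9: Cav1, of caveolae, at 13.47, 13.29 and 13.51, Robo4 at 11.77 ± 0.04, Emcn at 11.52 ± 0.04 and Pecam1 at 10.47 ± 0.12. Fibroblast markers were detected in 7 of 8 cases, Pcolce at 9.14 ± 0.04 and Islr at 8.38 ± 0.21 beside Dcn and Mgp. Of the smooth muscle genes Acta2 (10.71 ± 0.03) and Mylk (9.31 ± 0.21) were detected and Cnn1 was not. Red cell genes ranged from Hba-a1, alpha globin (14.76, 14.73 and 14.69), and Hbb-b2 (13.38 ± 0.08) to the embryonic Hbb-y, which was not detected. The globin genes are near-identical pairs and their probes may not tell them apart.

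Macrophage and leukocyte genes were detected in 8 of 13 cases (61.5%, against 51.7% of all named genes), at a median percentile of 57.2 against 63.1, with the complement genes C1qb (8.70 ± 0.06) and C1qa (7.95 ± 0.04) and the receptor gene Csf1r (7.76 ± 0.23) among them, while Ptprc and Itgam were not detected. Epicardial genes were detected in 8 of 10, with Wt1, the factor of the epicardium, at 9.22, 9.32 and 9.23. Of nerve and glia markers 4 of 10 were detected, Syn2 brightest at 8.42 ± 0.10. Of 4 lung and liver markers only Apoa1 was detected, at 7.45, 7.43 and 7.44. Of 3 skeletal muscle markers only Casq1 was detected on all arrays (10.31, 10.70 and 10.33). Of 7 atrial and conduction markers 4 were detected (57.1%), also near the share of all named genes. Myl7 and Gja5 (9.03, 9.36 and 8.94), both known from atria, were among them, while Kcnj5 and Nr2f2 were detected on no array and Kcnj3 on 1. The 4 measured ventricle markers, with Lrrc39 (9.31 ± 0.30) and Irx4, were all detected.

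Genes that answer to stress hormones and handling were mixed. Mt1, a metallothionein, was bright at 14.43, 14.26 and 14.12. Sgk1, a glucocorticoid-induced kinase, read 11.62 ± 0.07. The immediate early genes with named probes were dim, with Junb at 7.34 ± 0.23, Egr3 at 5.97 ± 0.10 and Egr2 at 5.81 ± 0.16, and Nr4a1 and Myc not detected.

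The spread between arrays was small for most probes. The median SD over 16851 probes was 0.11 on the log2 scale. It was 0.15 in the second and the third 10% from the dim end and 0.07 in the brightest 10%. On raw values the SD between arrays was 1.47 times the error expected from the beads alone as a median, 1.05 times in the dimmest 10% and 1.64 times in the brightest. An SD from 3 arrays is itself rough, with a 95% interval from 0.52 to 6.28 times its value. Among genes above the median brightness, those with the smallest SD included Atg2b, of autophagy (8.49, 8.49 and 8.49), Rab7, of late endosomes (11.15, 11.15 and 11.16), and Cox5b.

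**Figure D4:**
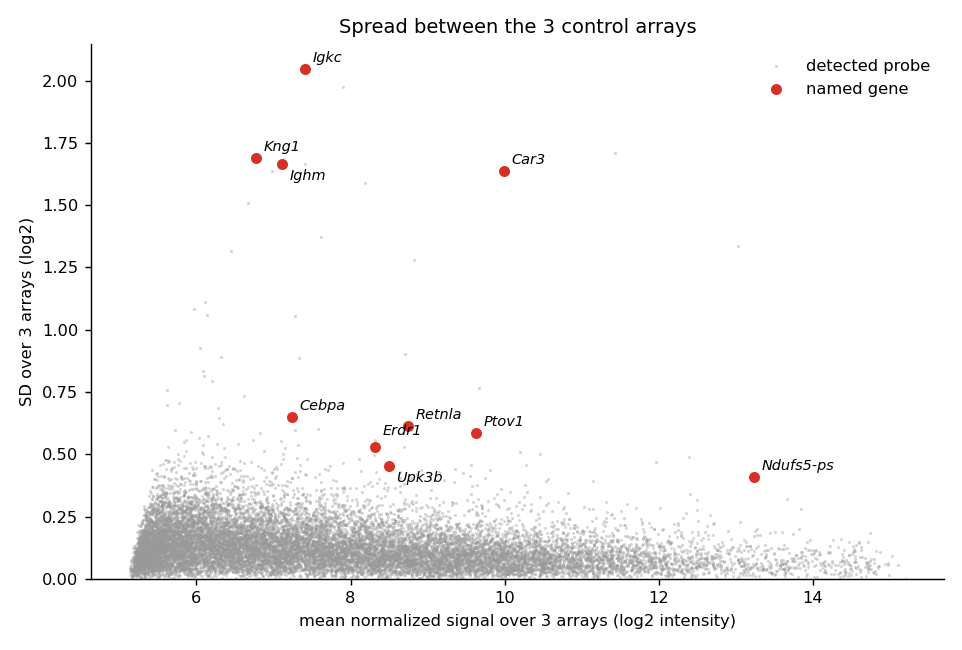
SD over the 3 control arrays (y axis, log2) against the mean normalized log2 intensity (x axis) of the 16851 detected probes (grey), with 10 genes named (red). Of the probes, 90% lie below an SD of 0.24, and Igkc, Kng1, Ighm and Car3 lie between 1.64 and 2.05.

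The widest spread between arrays was in Igkc, Kng1, Ighm and Car3. Igkc, the constant region of the kappa light chain of antibodies, had the largest SD of all named genes (2.05) and read 5.79, 9.71 and 6.72. Ighm, the heavy chain of IgM, read 6.12, 9.04 and 6.19 (SD 1.67). Both were highest on control 2. Car3, a carbonic anhydrase abundant in fat and slow skeletal muscle, read 8.31, 11.58 and 10.09 (SD 1.64) and differed among all 3 arrays. Retnla, a secreted protein of fat and of alternatively activated macrophages, read 8.63, 9.41 and 8.20.

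Of the 63 detected probes with an SD over 0.5, 40 were highest on control 2, 14 on control 3 and 9 on control 1. The count of 63 went to 165 without control 1, 89 without control 2 and 111 without control 3, each from an SD over 2 arrays. Only 17 of them represent named genes, and 14 of those 17 were highest on control 2. Beyond Igkc, Ighm, Car3 and Retnla, the genes of this kind given here were singled out after their values were seen. Kng1, the precursor of the kinins, read 5.41, 8.67 and 6.26. Cebpa, a transcription factor of fat, liver and myeloid cells, read 6.77, 7.98 and 6.97, and the lipid enzymes Elovl6 and Acat2 read 5.75, 6.83 and 6.20, and 6.39, 7.41 and 6.83. H2-Ab1, a class II antigen-presenting molecule, read 6.37, 7.15 and 6.11. A second, dimmer probe of H2-Ab1 differed little between arrays, at 5.29, 5.33 and 5.21. It lay near the limit of detection, at percentile 2.2, where a difference would be hard to see. Outside these 17 genes, Cd74, the chaperone of class II molecules, read 7.38, 8.03 and 7.46, with an SD of 0.35. Lyz1, a lysozyme, also outside them, passed the threshold on control 2 alone (4.82, 6.43 and 4.68).

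Without control 2, the SD of Igkc was 0.66, that of Ighm 0.05, of Kng1 0.60, of Cebpa 0.14 and of H2-Ab1 0.18, while that of Car3 was still 1.26. Among markers of the same lists, some were highest on control 2 and others were not. The summed signal of the 5 measured T and B cell markers was 718, 1211 and 723 in linear units, and without Ighm 648, 684 and 650. Most of the sum without Ighm was Satb1 (9.02, 9.08 and 9.02 on the log2 scale), so it says little about the other members. Of these, Rag1 was detected on 1 array (4.91, 5.25 and 4.99). Rag1 and Cd3e (5.30, 5.39 and 5.11) were highest on control 2, near the limit of detection. Ptcra (5.91, 5.95 and 6.05) was highest on control 3. The summed signal of the 5 measured adipocyte markers was 18061, 19617 and 17783, and without Car3 17744, 16561 and 16691. Most of that sum was Lpl, the lipoprotein lipase that heart muscle also makes (13.83, 13.67 and 13.72 on the log2 scale). Without Car3 and Lpl, a sum added after seeing these values, it was 3211, 3491 and 3209, highest on control 2. The summed signal of the 3 measured skeletal muscle markers was 1321, 1719 and 1348, and without Actn3 1293, 1687 and 1310. Both were highest on control 2, and of these markers only Casq1 was detected on all arrays. The plasma cell gene Jchain and the IgG constant regions Ighg1 and Ighg3 were not detected on any array. The kappa variable segment IGKV1-110 read 5.15, 6.50 and 5.22, highest on control 2 as Igkc and Ighm were. The other detected kappa segments, all dim and close to the limit of detection, did not show such a rise. IGKV12-41 (5.46, 5.52 and 5.77), IGKV14-100 (5.40, 5.50 and 5.65) and IGKV1-99 (5.36, 5.51 and 5.68) were highest on control 3. IGKV1-88 read 5.25, 5.35 and 5.33, highest on control 2 by a small margin. The T cell genes Satb1 (9.04 ± 0.04) and Ptcra (5.97 ± 0.07) had an SD below the median of 0.11 over all detected probes. That of Cd3e (5.27 ± 0.14), whose probe lies near the limit of detection, was above it. The lung and liver sum was 245, 245 and 245. Of its 4 measured markers, 3 were not detected on any array, so this sum says little about them. Whether tissue taken along with the heart differed between these samples was not tested.

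Other wide genes were highest or lowest on different arrays. Ptov1 read 9.08, 9.58 and 10.25, highest on control 3. Erdr1, a gene at the end of the X chromosome with repeated copies, read 8.93, 8.003 and 8.03, highest on control 1. Upk3b, a uroplakin of the epicardium, was lowest on control 3 (8.69, 8.81 and 7.98), as were the epicardial list's Krt8 (6.18, 6.26 and 5.56) and Lrrn4 (6.07, 5.56 and 5.12), while Wt1 and Prg4 were not. The sum of the 10 epicardial probes was 1758, 1819 and 1542. Selenof, Btg1 and Eif3h were lowest on control 2, at 7.18, 7.32 and 7.173 against 7.78 or higher on the other arrays. Without control 2, the SD of Btg1 went from 0.40 to 0.03 and that of Eif3h from 0.39 to 0.05. Snrpn, an imprinted gene of RNA splicing, read 8.35, 7.98 and 8.78 with its brightest probe. Its other detected probe spread less, at 7.06, 6.99 and 6.88.

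**Figure D5:**
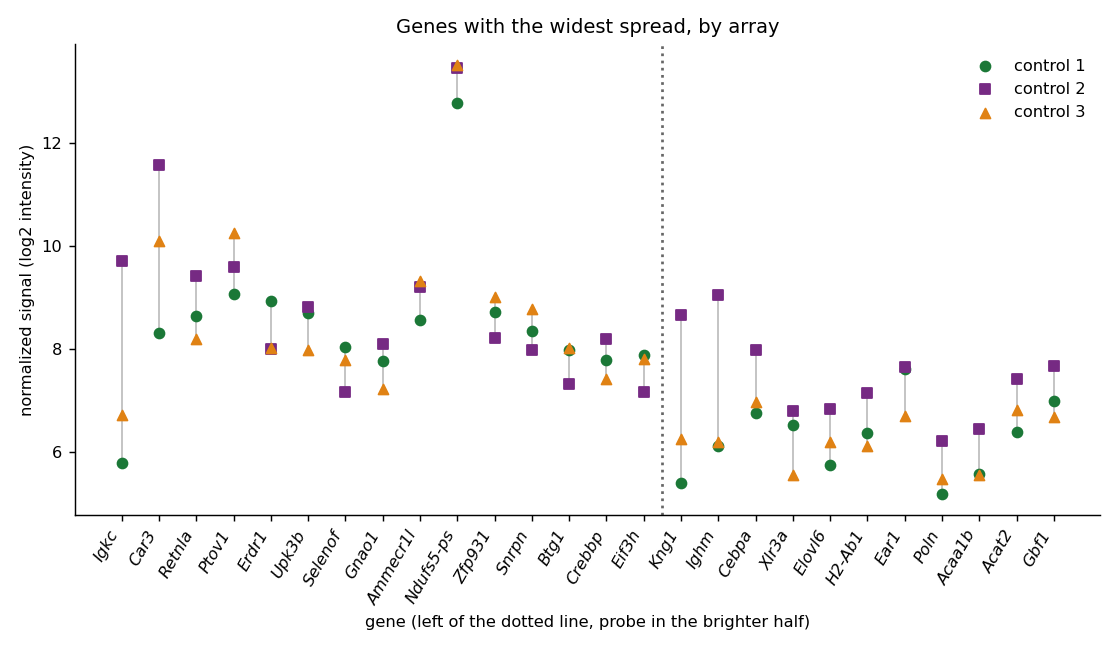
Normalized log2 intensity on control 1 (circles), control 2 (squares) and control 3 (triangles) of the 15 genes with the largest SD above the median brightness (left of the dotted line) and of further genes with an SD over 0.5 at lower brightness (right). Igkc, Kng1 and Ighm lie far higher on control 2 than on the other arrays.

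How far a gene's own probes differed varied from gene to gene. Of the 460 genes with at least 2 detected probes, 98 had probes more than 50 percentiles apart and 71 had them within 5. Il11ra1, a cytokine receptor subunit, spanned 95.2 percentiles, with a bright probe at 12.04, 12.22 and 12.06 and a dim one at 5.31, 5.21 and 5.18. Akt2, the insulin-responsive kinase, spanned 92.3 percentiles and Tfpi, the inhibitor of the tissue factor pathway, 88.7. At the other extreme both probes of Hspa8 read 14.51 and 14.41, those of Ndufs4, of complex I, 13.49 and 13.40, and those of Cox6a1, of cytochrome c oxidase, 12.61 and 12.57.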

How the data were processed

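BeadStudio 2.3.47 wrote the deposited signals, which are mean intensities over the beads of a probe with no normalization, per the file headers. Detection scores, also deposited, are a fraction between 0 and 1 that rises with brightness. The numbers of beads and the bead spread in the deposited table served only to describe array quality. A further table of the authors holds intensity after background subtraction, as its negative values show (35.7% on each control array), and its normalization is not given in the sources used. It served as an alternative only.

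Raw intensities were corrected with normexp in limma 3.58.1 (R 4.3.3), with noise taken from 1 minus the detection score, and an offset of 16. The 3 control arrays were quantile normalized and log2 was taken. The 28 spike control probes were left out. Columns not mapped to a sample numbered 0. A gene was represented by its brightest detected probe. No test was made, because there is no comparison, and with 3 arrays every value is only as precise as their number allows. The spread calculation was tested on simulated data.

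A number in the probe code was read as an NCBI mouse gene ID in the RefSeq table of GRCm38.p6. Of 11857 such numbers 82.6% were gene IDs, and at most 46.0% after shifts of 1 to 20. The 12165 detected probes without a name enter only the percentiles and the spread.

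The genes named are the 30 brightest without predicted symbols. In each of 37 lists they are the 5 brightest, the dimmest and the most spread detected members. They include all measured markers of other cell types, heart regions and the label check, the 15 most and 10 least spread genes above the median brightness, and the 5 widest and 5 narrowest genes with several probes. Other list members, the named relatives of a gene, and genes with an SD over 0.5 at lower brightness were singled out after their values were seen. Some genes that this rule names are not reported here. Members and lists were chosen with earlier results of these data known. Alternatives were other normalizations and offsets, other detection rules, each array left out, and the mean of a gene's probes.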

Additional observations from a re-analysis of the deposited data

How the results depend on the processing

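No paired analysis was possible because the results come from no test. The median SD of detected probes, 0.113, depended on the scale. It was 0.159 on raw intensities, 0.137 with median scaling, 0.0895 with an offset of 50, 0.134 in the authors' value table (log2 with a floor of 16) and 0.106 over named genes only, an alternative added after seeing the data. Leaving out each array gave 0.0861 to 0.0961, as pairs of arrays give lower median SDs by construction. Of the 15 most spread genes, 8 were shared on raw intensities, and 7 to 8 with an array left out. The other normalizations shared 11 to 14 of them. The 30 brightest genes were the same 30 under all 5 other normalizations, and 28 to 30 were shared with an array left out. A detection score over 0.99 left 12527 probes and 3519 genes, and detection on at least 1 array gave 19682 and 4591. Median percentiles of the 37 lists moved by at most 0.96 under the other normalizations. The detection rule, which changes the probes ranked, moved most lists beyond their spread between arrays, 35 with a score over 0.99 and 32 with detection on at least 1 array. The mean of a gene's probes moved 16. Leaving out control 1, 2 or 3 moved 10, 15 and 4, by at most 6.7. The fetal cardiac list went from 28.5 to 86.7 with a score over 0.99, skeletal muscle from 87.4 to 46.1 with detection on at least 1 array, and the thin filament gene from 83.7 to 44.4 with the mean of its probes. These lists were small, with 5, 1 and 1 genes detected in the main setting. The 3 detected probes of Tpm3, the thin filament gene, ran from percentile 1.5 to 83.7, and their mean is the lower value. The cause of the moves in the other lists was not tested.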
